A study of Drosophila melanogaster with 4 samples.

Results

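The vacuolar-type H+-ATPase (V-ATPase) genes of the larval nervous system were taken as every gene whose Drosophila melanogaster symbol starts with Vha. A RefSeq gene table names 33 such genes, and 28 of them were listed in at least 1 of the 4 libraries, out of 13997 genes listed in all. The V-ATPase is a rotary pump that spends ATP to move protons into lysosomes, endosomes and secretory vesicles. Its soluble V1 sector (subunits A to H) hydrolyses ATP and turns a central stalk, and its membrane sector Vo (subunits a, c, c'', d and e) carries the protons on a rotating ring. In nervous tissue the pump also provides the proton gradient that loads neurotransmitter into synaptic vesicles, and in glia it acidifies the lysosomes that degrade engulfed material. In Drosophila several subunits have more than 1 gene, some of them known mainly from the testis.

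Central nervous systems of larvae were collected 96 hours after egg laying, in 4 pools of 70 to 100 animals. The 2 control pools carried repo-Gal4 driving mRFP, a red fluorescent protein. In the 2 pools labelled reprogrammed the same driver expressed constitutively activated forms of Egfr, the epidermal growth factor receptor, and of PI3K92E, the catalytic subunit of phosphoinositide 3-kinase. The repo regulatory sequence is active in glia, so the transgenes act in these cells, while the RNA came from the whole nervous system. In such bulk samples fewer cells of a type and less RNA per cell cannot be told apart. Any further difference in background between the 2 genotypes cannot be told apart from the transgenes either.

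Values are FPKM, read fragments scaled to transcript length and to the size of the library, and unlisted genes count as 0. From the spacing of low values, 1 FPKM of a transcript of 1 kilobase corresponded to 11.2 to 12.3 reads, so depth was similar in the libraries. A change is the reprogrammed mean less the control mean of log2(FPKM + 1), given with its standard error (SE) and the Benjamini-Hochberg adjusted p from limma over 9851 genes, two-sided, n = 2 per group. Nothing in the labels says how the pools of a group were separated in time or parentage, so p-values reflect only how far these pools differ, which may be technical. The tissue carried its own markers: all 16 neuron and all 15 glia markers were listed in every library. The summed FPKM of the neuron markers was 1248 and 1113 in controls and 296 and 418.5 in reprogrammed libraries, and that of the glia markers was 884 and 1203 against 3790 and 3466. Sums for other tissues differed within the groups too. Salivary gland markers summed to 1024 FPKM in control replicate 1 and to 1.4 to 16.2 elsewhere. Fat body markers were highest in control replicate 2, at 1456.5 FPKM against 67.7 to 535 in the others. Uro, the defining gene of the Malpighian tubule, a tissue rich in V-ATPase, was at 0 in both controls and at 0.15 and 0.07 FPKM in the reprogrammed libraries. The 10 markers of that tissue summed to 45.4 and 77.7 FPKM in controls and 129.8 and 104.7 in reprogrammed libraries. Of the 8 tested, 5 had positive changes, CG6602 (2.35), NKCC (2.02), Irk3 (1.71), ClC-a (1.29) and Best1 (0.42). The first 2 of these were called higher, beside 4.11% of all tested genes. The other 3 tested were negative, Drip (−1.19), Nep2 (−0.93) and Lkr (−0.40). The part of these markers in the V-ATPase values was not tested.

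The genes fell into 3 classes. For each of the 13 subunits the gene with the highest mean FPKM over all libraries was called the main gene, which gave 13 main genes and 18 lower paralogs, and 2 genes for the accessory glycoprotein Ac45 were kept apart. Transcripts of a gene for every subunit were present in every library, with each main gene at 24.8 FPKM or more. The test was run on the 19 genes with 1 FPKM or more in 2 or more libraries, and the other 14 were all lower paralogs. Both genes that fell were lower paralogs, Vha68-1 and VhaM9.7-a. No V-ATPase gene was called higher, although 10 of the 13 main genes stood above both controls in both reprogrammed libraries. Among all tested genes 22.6% lay wholly above the controls in this way and 40.8% wholly below. Over all tested genes 4.11% were called higher and 8.13% lower, so 2 of 19 called lower was near the background share. Those shares stand for 405 genes higher and 801 lower, a split that depended on scaling: it was 586 and 439 with libraries set to a common median, 310 and 1225 at a common sum of FPKM, 369 and 249 by quantile normalization and 446 and 297 without the length trend.

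Single main genes differed in their ratio of group means, from 1.06 (VhaAC39-1) to 2.81 (Vha14-1). Summed over the 13 genes, FPKM stood at about double the control level. The sums were 2894 and 2533 in the controls and 5692 and 5360 in the reprogrammed libraries. These sums made up 0.372% and 0.36% of all FPKM in the controls and 0.636% and 0.601% in the reprogrammed libraries. The ratio of the group means was 2.04, and it was 2.11 for the V1 and 1.95 for the Vo main genes. The median change of the 13 main genes was 0.79, beside −0.25 over all tested genes. All 13 changes were positive, from 0.14 to 1.58, except that Vha55, Vha100-1 and VhaAC39-1 turned negative on a common sum and without control replicate 1. None passed the test in limma, 6 of 13 had an unadjusted p under 0.05, beside 34.1% of all tested genes, and the smallest adjusted p was 0.0638. With the replicate block Vha68-2, Vha36-1, Vha14-1, Vha13 and VhaM9.7-b passed, beside 8.85% of all tested genes called higher.

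**Figure D1:**
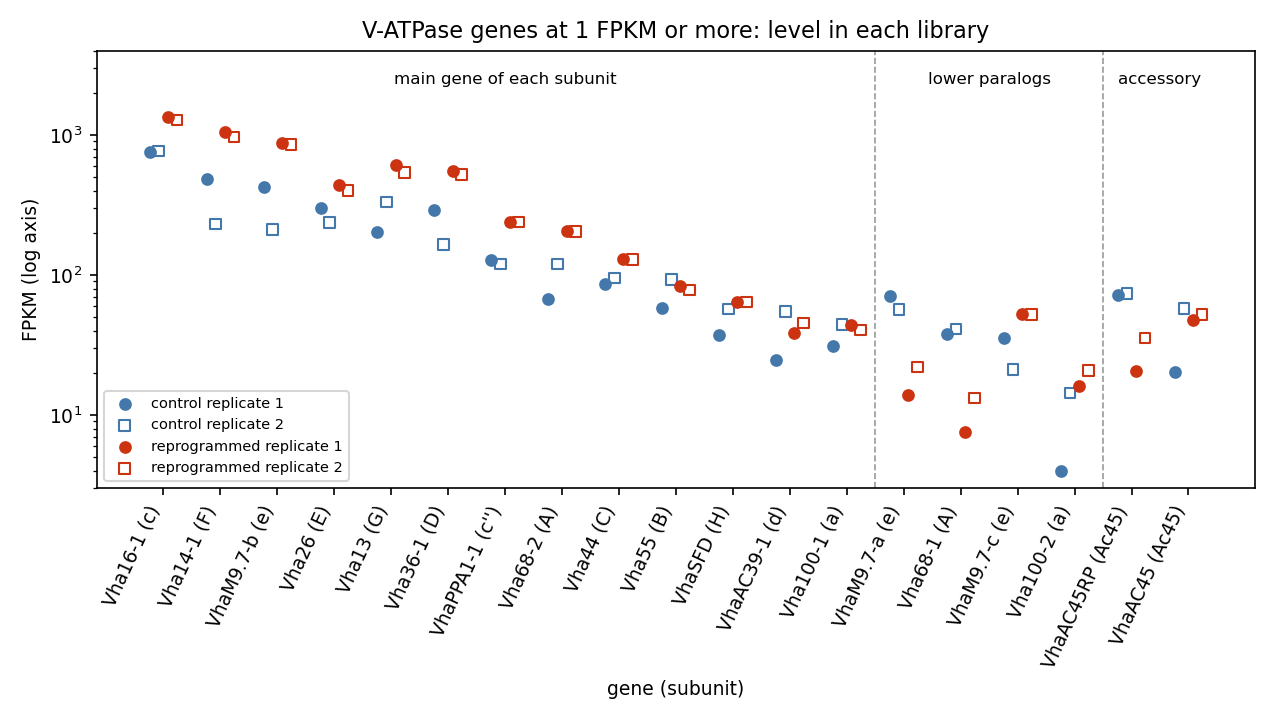
FPKM of the 19 V-ATPase genes tested, on a log axis, 1 point per library (blue, control; red, reprogrammed; filled circles, replicate 1; open squares, replicate 2), with the subunit in brackets. For Vha16-1 the controls sit at 754 and 769.7 FPKM and the reprogrammed libraries at 1352 and 1277, while Vha68-1, VhaM9.7-a and VhaAC45RP show the opposite order.

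In the catalytic head, subunit A binds and hydrolyses ATP and alternates with subunit B. Vha68-2, the main A gene, read 67.3 and 119.9 FPKM in the controls and 205.8 and 205.3 in the reprogrammed libraries. The reprogrammed values were close to each other and above both controls, a change of 1.19 ± 0.35 (SE) that did not pass (limma adjusted p = 0.075). It passed on a common median (0.0457), with the trend on transcript length removed (0.0457), with the replicate block (0.0128) and without control replicate 1 (0.03) or 2 (0.0202). Without reprogrammed replicate 1 or 2 the adjusted p was 0.437 and 0.316. Vha55, the only B gene, read 58.0 and 92.6 FPKM in controls and 83.0 and 78.3 in reprogrammed libraries, so the groups overlapped. Its change of 0.14 ± 0.32 was negative on a common sum of FPKM (−0.13) and without control replicate 1 (−0.20). Summed over its paralogs, subunit A stood at 1.81 and 1.74 times subunit B in the controls and at 2.57 and 2.79 times in the reprogrammed libraries. The groups did not overlap, and since the ratio is taken within a library, a single scaling factor per library leaves it as it is. Among the other subunit ratios taken, c'' over d was also higher without overlap, and D over F and c over c'' were lower. The ratios C over H, E over G, c over a and c over d overlapped between the groups. For any such pair of 2 against 2 values the exact permutation test cannot go below p = 0.333.

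The central stalk genes had the highest values of change among V1 main genes. This order did not hold without control replicate 2, where Vha68-2 (1.60) and Vha13 (1.49) exceeded Vha14-1 (1.05) and Vha36-1 (0.88). With the length trend removed, Vha68-2 (1.46) also exceeded Vha14-1 (1.36) and Vha36-1 (1.18). Vha14-1 encodes subunit F of the central stalk and read 485 and 232 FPKM in controls and 1051 and 966.5 in reprogrammed libraries. Vha36-1, the main gene of the neighbouring stalk subunit D, read 292 and 166 against 552 and 521 FPKM. In both genes control replicate 1 was well above control replicate 2, and the reprogrammed libraries were above both. Their changes were 1.58 ± 0.43 (limma adjusted p = 0.064) and 1.28 ± 0.36 (0.0688). The peripheral stalk, which holds the head still, is made of subunits E and G. Vha13 (G) read 204 and 332 FPKM in controls and 614 and 539.7 in reprogrammed libraries, a change of 1.14 ± 0.35 (limma adjusted p = 0.08). Vha26 (E) read 299.8 and 238 against 442.5 and 401 FPKM, a change of 0.66 ± 0.29 (limma adjusted p = 0.174). The controls of these genes were ordered in opposite ways, so E over G was 1.47 and 0.716 in controls and 0.721 and 0.744 in reprogrammed libraries.

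Vha44 encodes subunit C, which joins the head to the membrane sector and leaves it when the pump is switched off by disassembly. It read 86.9 and 95.3 FPKM in controls and 129 in both reprogrammed libraries (0.50 ± 0.25, limma adjusted p = 0.224). VhaSFD encodes subunit H, which keeps the detached head from spending ATP, and read 37.1 and 57.2 against 64.2 and 64.0 FPKM (0.47 ± 0.31, limma adjusted p = 0.343). Neither gene passed, although both reprogrammed values lay above both controls.

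In the membrane sector 3 main genes lay above the controls in both reprogrammed libraries. Vha16-1 encodes the proteolipid c, present in several copies per ring, and was the most abundant V-ATPase transcript per length in every library. It read 754 and 769.7 FPKM in controls and 1352 and 1277 in reprogrammed libraries (0.79 ± 0.32, limma adjusted p = 0.147). VhaPPA1-1, the main gene of the related ring protein c'', read 128 and 119.8 against 240.1 and 239.3 FPKM. Its change of 0.95 ± 0.26 had the smallest adjusted p of the main genes, 0.0638. VhaM9.7-b, the main gene of the small subunit e, read 427 and 211 FPKM in controls and 877 and 852 in reprogrammed libraries (1.52 ± 0.41, limma adjusted p = 0.0641). In VhaPPA1-1 the replicates of each group were close, whereas in VhaM9.7-b control replicate 1 was about double control replicate 2.

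The remaining Vo main genes overlapped between the groups. Vha100-1 encodes the a subunit, which holds the channels for protons and is known in Drosophila for its role in neurons and at synapses. It read 30.9 and 44.5 FPKM in controls and 43.6 and 40.4 in reprogrammed libraries (0.17 ± 0.30, limma adjusted p = 0.722). VhaAC39-1 encodes subunit d, which couples the ring to the stalk, and read 24.8 and 54.7 against 38.5 and 45.4 FPKM (0.18 ± 0.42, limma adjusted p = 0.803). Both were negative on a common sum, at −0.09 each, and without control replicate 1, at −0.08 and −0.38. For both genes the values of the reprogrammed libraries lay between those of the controls.

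The proportions among the main genes varied between libraries, also between the controls. Taken as shares of the 13-gene sum within each library, 7 genes had lower shares in both reprogrammed libraries than in either control, 2 had higher shares and 4 overlapped. Shares within 1 sum are not independent, since a higher share of 1 gene lowers the others, and these counts were not tested. By FPKM itself, 22.6% of all tested genes lay wholly above the controls and 40.8% wholly below. Shares within a sum were not taken for other sets of genes. Vha14-1 made up 16.8% and 9.16% in controls and 18.5% and 18.0% in reprogrammed libraries, and VhaM9.7-b was the other gene with a higher share. Vha16-1 made up 26.1% and 30.4% in controls and 23.7% and 23.8% in reprogrammed libraries. Vha55 made up 2.01% and 3.66% against 1.46% in both reprogrammed libraries. The remaining 5 genes with lower shares were Vha44, Vha26, VhaSFD, Vha100-1 and VhaAC39-1.

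The order of levels was similar at its top and bottom in both groups. By group mean, Vha16-1 was first, and Vha14-1 and VhaM9.7-b followed in that order in both. Among the controls Vha14-1, VhaM9.7-b, Vha26, Vha13 and Vha36-1 had means of 358.5 ± 178.8, 319.1 ± 152.2, 268.7 ± 43.95, 268 ± 90.5 and 229 ± 88.9 FPKM (SD, n = 2), so neighbours in that order did not differ beyond their spread. VhaAC39-1 and Vha100-1 were lowest, at 39.8 ± 21.2 and 37.7 ± 9.61 FPKM in controls. In the reprogrammed libraries the means of Vha14-1, VhaM9.7-b, Vha13, Vha36-1 and Vha26 were 1009 ± 59.7, 865 ± 17.7, 577 ± 52.4, 536 ± 21.6 and 422 ± 29.1 FPKM, of which only Vha13 and Vha36-1 lay within their spread of each other. There the 2 lowest genes read 41.9 ± 4.87 and 42.0 ± 2.25 FPKM. The highest main gene stood at 30.4 and 17.3 times the lowest in the controls and at 35.1 and 31.6 times in the reprogrammed libraries.

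**Figure D2:**
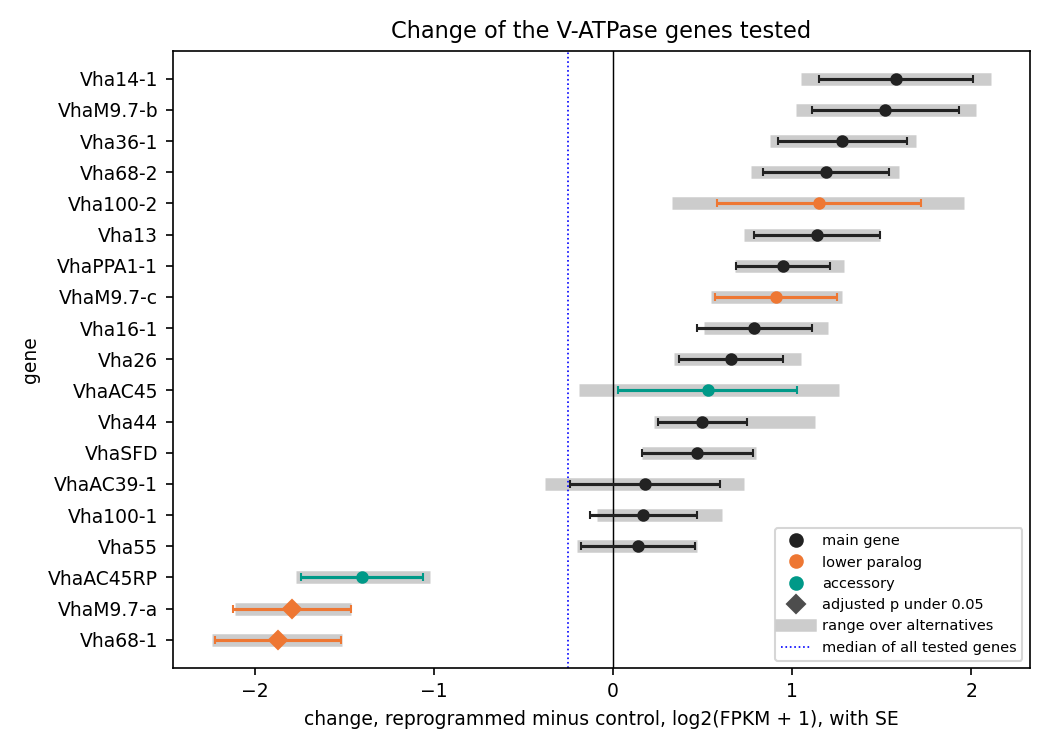
Change of the 19 V-ATPase genes tested, reprogrammed less control as log2(FPKM + 1), with the SE (bars) and the range over the alternative settings (grey); diamonds mark an adjusted p under 0.05 and the dotted line the median of all tested genes at −0.25. The 13 main genes range from 0.14 to 1.58, and the 2 called genes, Vha68-1 and VhaM9.7-a, lie at −1.87 and −1.79.

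The lower paralogs tested went both ways. Of these 4 genes, 2 fell, beside the 8.13% of all tested genes called lower, and 2 had positive changes that did not pass. With main genes chosen by the control libraries alone, the median changes of main genes and tested lower paralogs stayed at 0.79 and −0.44. Vha68-1, the paralog of the catalytic A subunit, read 38.0 and 41.1 FPKM in controls and 7.60 and 13.2 in reprogrammed libraries. Both reprogrammed values were far below the controls, and replicate 1 was the lower of them. It fell by 1.87 on the log2 scale (SE 0.35, limma adjusted p = 0.0382), with a range from −2.24 to −1.51 over the alternatives. In the RefSeq gene order only 2 genes lie between Vha68-1 and Vha68-2, and 1 of them is Vha68-3. VhaM9.7-a, a paralog of the small e subunit, read 70.4 and 56.9 FPKM in controls and 13.9 and 22.1 in reprogrammed libraries, again with no overlap and with replicate 1 lower. It fell by 1.79 (SE 0.33, limma adjusted p = 0.038), with a range from −2.11 to −1.46. Without reprogrammed replicate 1 the adjusted p was 0.331 for Vha68-1 and 0.311 for VhaM9.7-a. With no filter on low values it was 0.0862 and 0.0843, and limma then called none of 13997 genes, with 11 of 28 V-ATPase genes at an unadjusted p under 0.05. The share of all tested genes under that p was 34.1% with the filter and was not taken without it. On a common median VhaM9.7-a also missed the threshold (0.0641).

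The 2 other tested paralogs lay above the controls in both reprogrammed libraries. VhaM9.7-c, also a gene for subunit e, read 35.7 and 21.1 FPKM in controls and 53.0 and 52.4 in reprogrammed libraries (0.91 ± 0.34, limma adjusted p = 0.121). Vha100-2, a second a-subunit gene, read 3.97 and 14.4 against 16.1 and 20.9 FPKM (1.15 ± 0.57, limma adjusted p = 0.222). Control replicate 1 alone was far below the rest for Vha100-2, and its change was 0.33 without that library and 1.96 without control replicate 2. Among the settings that kept all 4 libraries, Vha100-2 passed only with the replicate block (limma adjusted p = 0.0401), and VhaM9.7-c passed in none.

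Within subunits A and e the balance of paralogs differed between the groups in every library. Vha68-2 supplied 63.9% and 74.5% of the FPKM of subunit A in the controls and 96.4% and 93.9% in the reprogrammed libraries. It stood at 1.77 and 2.92 times Vha68-1 in controls and at 27.1 and 15.5 times in reprogrammed libraries. VhaM9.7-b supplied 80.1% and 73.0% of subunit e in controls and 92.9% and 92.0% in reprogrammed libraries. VhaM9.7-c stood at 0.507 and 0.372 times VhaM9.7-a in controls and at 3.81 and 2.37 times in reprogrammed libraries, so the order of these paralogs was exchanged. For subunit a the balance lay the other way, with Vha100-1 at 88.6% and 75.3% in controls and 72.9% and 65.9% in reprogrammed libraries. The gap between control replicate 2 and reprogrammed replicate 1 was small there against the gap between the controls.

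**Figure D3:**
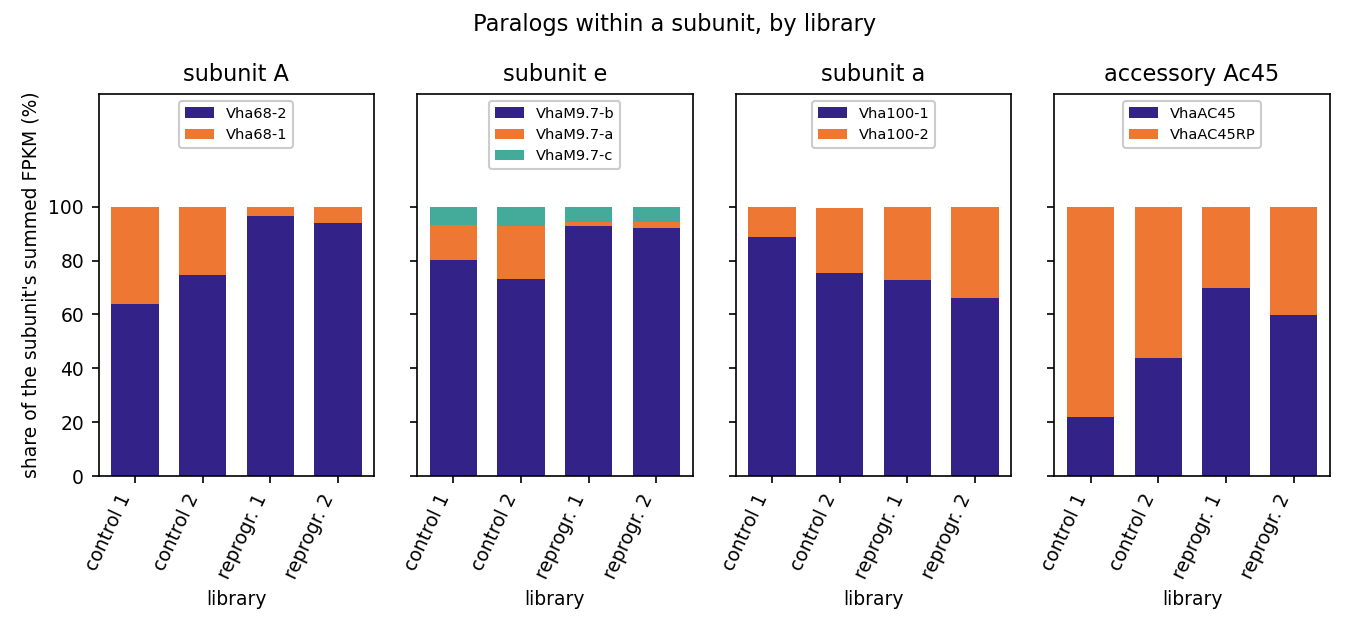
Share of each subunit's summed FPKM held by its genes, in percent, in the 4 libraries, for subunits A, e and a and for the accessory Ac45 genes. Vha68-2 goes from 63.9% and 74.5% to 96.4% and 93.9%, and VhaAC45 from 22.0% and 43.8% to 69.9% and 59.6%.

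The accessory genes showed an exchange as well. VhaAC45 is the fly counterpart of Ac45, a membrane glycoprotein that helps assemble and direct the pump. VhaAC45RP encodes a related protein described in Drosophila as a neuronal regulator of the V-ATPase. VhaAC45RP read 72.4 and 73.8 FPKM in controls and 20.7 and 35.4 in reprogrammed libraries, with no overlap. Its change of −1.40 ± 0.34 just missed the threshold (limma adjusted p = 0.052) and passed on a common sum (0.0363), with a filter of 5 FPKM (0.0446), with the replicate block (0.00261) and without control replicate 1 (0.0425). VhaAC45 read 20.4 and 57.5 FPKM in controls and 48.1 and 52.4 in reprogrammed libraries (0.53 ± 0.50, limma adjusted p = 0.502). Its reprogrammed values lay between the controls, and its change was −0.19 without control replicate 1 and 1.26 without control replicate 2, where it passed (limma adjusted p = 0.0221). VhaAC45 stood at 0.281 and 0.78 times VhaAC45RP in controls and at 2.33 and 1.48 times in reprogrammed libraries.

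The 3 genes with lower values, Vha68-1, VhaM9.7-a and VhaAC45RP, were each lower in reprogrammed replicate 1 than in replicate 2. The summed neuron markers had the same order, 296 and 418.5 FPKM against 1248 and 1113 in controls. The same order held for the 6 neuroblast markers (17.3 and 25.0 against 92.2 and 107.0 FPKM, median change −2.05, 4 called lower) and the 6 markers of trachea and cuticle (60.0 and 76.6 against 153.1 and 270.5 FPKM, median −1.48, 2 called lower). Reprogrammed replicate 1 was also the lower in the sums of muscle (45.9 and 140.1 FPKM) and fat body markers (67.7 and 535). The same went for hemocyte (410.8 and 613.8) and salivary gland markers (4.6 and 16.2). The 6 imaginal disc markers summed to 31.9 and 29.5 against 262 and 509 FPKM, with 3 called lower. Like the imaginal disc sum, the sums of glia, gut, Malpighian tubule and ring gland markers were higher in reprogrammed replicate 1. All 16 neuron markers had negative changes, 12 of them called lower, with a median of −1.76, next to changes of −1.87, −1.79 and −1.40 for the 3 genes. All 15 glia markers had positive changes, 9 of them called higher, with a median of 1.64. Vha100-1 had a change of 0.17, with overlap between the groups. The part of any of these cell types in the V-ATPase values was not tested.

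The 14 paralogs below the filter were at or near the limit of detection. Vha16-2, Vha16-4, Vha100-3, Vha100-4 and VhaM9.7-d were listed in none of the libraries. A count of 0 allows up to 3 reads, which for these single-transcript genes corresponds to between 0.0842 FPKM for Vha100-3 and 0.59 FPKM for VhaM9.7-d. This limit covers counting error alone. Of the 9 listed, 8 never exceeded 0.35 FPKM. Vha68-3 was listed in reprogrammed replicate 1 alone, at 0.04 FPKM or about 1.1 reads, and VhaPPA1-2 in both controls at 0.14 and 0.13 FPKM, about 1.0 read each. Vha14-2 was likewise listed in both controls, at 0.15 and 0.16 FPKM, and in neither reprogrammed library. Differences among these genes were not detectable at this depth. Vha36-3, a stalk paralog, was the exception, with 4.95 FPKM in control replicate 2 and 0.31, 0.57 and 0.49 FPKM in the other libraries.

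Changes of the main genes went with transcript length. The 5 main genes whose longest annotated transcript is under 1500 bases, Vha14-1, Vha13, Vha36-1, VhaM9.7-b and VhaPPA1-1, had changes from 0.95 to 1.58. The 8 longer ones ranged from 0.14 to 1.19, with medians of 1.28 and 0.48. Across the 13 genes, which share their libraries, Pearson's r of change and log2 length was −0.74 and Spearman's rho −0.68. Among these 13 genes the controls also differed along length, with r = 0.50 and rho = 0.26 for control replicate 2 less control replicate 1. Over 9839 tested genes the same control difference gave r = 0.07 and rho = 0.08. Without control replicate 1 the medians of the short and long main genes were 1.69 and 0.30, and without control replicate 2 they were 1.02 and 0.65. For reprogrammed less control, r and rho across the 9839 tested genes were −0.34 and −0.40. The median change there was 0.16 under 1000 bases and −0.90 at 3500 bases or more. With that trend removed the median of the main genes was 1.05 and their range 0.21 to 1.46. The longest annotated transcript need not be the one expressed, and RNA integrity was not tested.

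**Figure D4:**
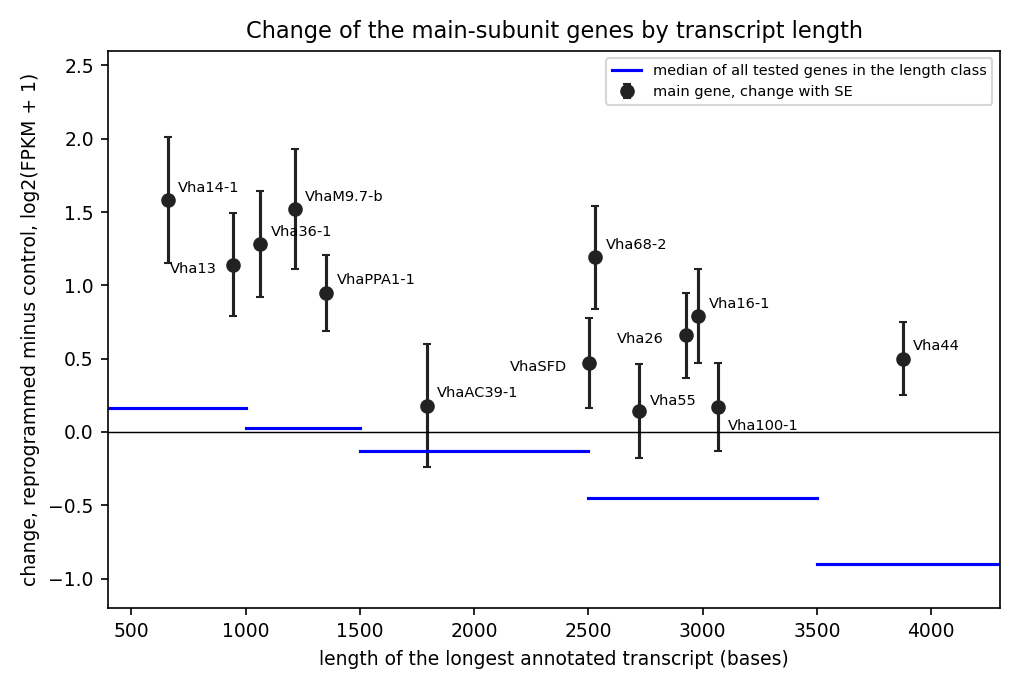
Change of the 13 main genes with SE (reprogrammed minus control, log2(FPKM + 1)) against the length of the longest annotated transcript in bases; blue lines give the median change of all tested genes in 5 length classes. The main genes under 1500 bases lie between 0.95 and 1.58, and the blue medians go from 0.16 in the shortest class to −0.90 in the longest.

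The controls differed from each other far more than the reprogrammed libraries did. The median absolute log2 difference between replicates was 0.67 in controls and 0.08 in reprogrammed libraries for the main genes, and 0.57 and 0.20 for all tested genes. Control replicate 2 was lower than replicate 1 by 1.06 on the log2 scale for Vha14-1 (−1.06) and higher by 1.11 for VhaAC39-1. Without control replicate 1, 8 main genes were called higher, and without control replicate 2 also 8. Calls over all tested genes were then more frequent too, at 12.8% and 12.4% higher against 4.11% on all libraries. These sets shared Vha68-2, Vha36-1, Vha14-1, Vha13, Vha16-1, VhaPPA1-1 and VhaM9.7-b. Those fits drew their spread from the reprogrammed libraries alone, and the lone control was assumed to vary like them. Without reprogrammed replicate 1 the smallest adjusted p of the main genes was 0.369 in limma, and without reprogrammed replicate 2 it was 0.204.

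Genes that assemble, regulate or work beside the pump showed no call on all 4 libraries. The list held 19 genes, all tested, with 7 at an unadjusted p under 0.05 in limma, near the 34.1% of all tested genes, and a median change of 0.22, which was −0.04 on a common sum and −0.05 without control replicate 1. Lamtor5 and Lamtor3 encode parts of the Ragulator, the lysosomal scaffold that binds the V-ATPase in nutrient sensing. Lamtor5 read 174.8 and 124 FPKM in controls and 241 and 231 in reprogrammed libraries (0.68 ± 0.29, limma adjusted p = 0.17), and Lamtor3 92.8 and 58.7 against 138 and 122 FPKM (0.80 ± 0.32, adjusted p = 0.143). Both lay above the controls in both reprogrammed libraries. CAH1, a carbonic anhydrase that makes protons from carbon dioxide and water, read 74.9 and 70.5 against 139.8 and 170.0 FPKM (1.08 ± 0.26, limma adjusted p = 0.0534). It passed with the replicate block. The TLDc-domain gene mtd read 111 and 87.9 FPKM in controls and 88.2 and 81.5 in reprogrammed libraries (−0.22 ± 0.27, limma adjusted p = 0.613). Mitf and ClC-c were chosen after their values were seen. Mitf, the fly TFEB-family factor known to bind V-ATPase genes, read 28.5 and 23.2 against 30.0 and 28.4 FPKM (0.18 ± 0.28, limma adjusted p = 0.696). ClC-c, a chloride transporter of acidic organelles, read 20.1 and 18.7 against 38.8 and 40.6 FPKM (1.00 ± 0.27, limma adjusted p = 0.0624). ClC-c passed with the length trend removed and with the replicate block.

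Among genes of the lysosome, the organelle that the pump acidifies, 5 of 30 tested rose, beside 4.11% of all tested genes, and none fell. The list was chosen with earlier results of these data known, so this count is not independent of that choice. The median change was 0.33. Ctns, the exporter of cystine, rose from 1.52 and 2.45 FPKM to 22.2 and 10.1 (2.44 ± 0.46, limma adjusted p = 0.0384). Ids, a sulfatase of glycosaminoglycan breakdown, rose from 6.07 and 13.2 to 50.01 and 52.2 FPKM (2.38 ± 0.40, limma adjusted p = 0.0345). The sterol carriers Npc2a and Npc2b rose by 2.29 ± 0.27 and 1.85 ± 0.27 (limma adjusted p = 0.0297 and 0.0324), and the protease gene cathD by 1.76 ± 0.38 (0.0435). For each of the 5 genes both reprogrammed libraries were above both controls. Lamp1, the most abundant gene of the list, read 731 and 547 FPKM in controls and 1709 and 1300.1 in reprogrammed libraries without passing (1.24 ± 0.36, limma adjusted p = 0.0721). The next most abundant uncalled genes were CtsL1 (0.85 ± 0.35), the autophagy gene Atg8a (−0.62 ± 0.31) and the late endosome GTPase gene Rab7 (0.56 ± 0.27). Without reprogrammed replicate 1 Npc2a alone was called in this list, and without reprogrammed replicate 2 it was Npc2a, Ids and Ctns. With no filter limma called none, with 10 of 34 at an unadjusted p under 0.05. With the filter, 34.1% of all tested genes were under that p.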

How the data were processed

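RNA from 4 pooled samples was sequenced, and the authors deposited 1 table of FPKM for each sample (per the file headers), with 2 decimals. Oligo(dT) selection and random-primed cDNA are given in the labels' protocols, which name no step that marks strand. Per the submitters' processing notes, the tools included HISAT and Bowtie2. Not given in the sources used here were the quantifier, versions, build and handling of reads shared between paralogs.

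Members and lists were chosen with earlier results of these data known. Groups came from sample titles. Names and gene order came from RefSeq Release 6 and transcript lengths from Ensembl BDGP6, where only Vha16-2 (84.5% of exon bases) and Vha100-5 (18.1%) share much exon sequence with an antisense gene, and no coordinates are printed. Genes at 1 FPKM in at least 2 libraries were fitted on log2(FPKM + 1) with limma (eBayes with trend, group as the only term), adjusted p under 0.05. Every Vha gene is named or counted. Of the lists of assembly and lysosome genes, called members and the 4 most abundant uncalled members are named. The list names written matched 152 symbols and 8 synonyms, and 9 matched nothing. Reads per FPKM were estimated from low values of single-transcript genes with 40 bases taken off the length: 95.7% to 97.3% came out whole within 0.15 reads, against 30.0% by chance. No count test was run, since FPKM of genes with several transcripts gives no counts. The fit was tested on simulated data. Alternatives were other scalings (libraries set to a common median, a common sum of FPKM, or quantile normalized), removal of a length trend (loess, span 0.5), other filters, a pseudocount of 0.1, a replicate block and each library left out. Software was limma 3.58.1 in R 4.3.3, and Python 3.11.15 with matplotlib 3.10.9, scipy 1.17.1, numpy 2.4.6 and pandas 2.3.3.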

Additional observations from a re-analysis of the deposited data

How the results depend on the processing

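V-ATPase genes called higher numbered 0 on all libraries, 1 on a common median, 1 with the length trend removed, 6 with the replicate block and 0 to 10 with 1 library left out. Those called lower numbered 2, then 1 on a common median, 0 with no filter and 0 to 3 with 1 library left out. Assembly and regulator genes called numbered 0, then 1 with the length trend removed, 2 with the block and 0 to 8 with 1 library left out. Lysosome genes called numbered 5, then 0 with no filter, 8 with the block and 1 to 13 with 1 library left out. Calls over all tested genes moved too: 12.2% were called in either direction on all libraries, 28.2% with the block, 46.5% and 29.1% without control replicate 1 or 2, and 2.6% and 4.87% without reprogrammed replicate 1 or 2. The median change of the V-ATPase genes tested (0.66) was 0.39 after scaling to a common sum, 1.00 on a common median, 0.89 without the length trend, 0.48 with quantile normalization, 0.19 with no filter and 0.43 to 0.77 with 1 library left out. That of the main genes (0.79) was 0.51, 1.13, 1.05 and 0.60 in the first 4 of these settings and 0.74 to 0.83 with 1 library left out. The median of all tested genes (−0.25) moved as well, to −0.49, 0.06, −0.05 and −0.04. That of the lower paralogs tested (−0.44) was −0.70 after scaling to a common sum, −0.11 on a common median, −0.05 with no filter and −0.66 to −0.29 with 1 library left out. With the accessory genes taken as a further subunit, an alternative chosen after seeing the data, it was 0.53, since VhaAC45 then joins 4 genes of which 2 are positive. The summed FPKM of the main genes changed by 1.03 (log2), by 0.76 after scaling to a common sum, 1.37 on a common median and 0.93 to 1.12 with 1 library left out. Changes of sign among single genes were those of Vha55 (−0.13 on a common sum, −0.20 to 0.47 with 1 library left out), Vha100-1 (−0.09, −0.08 to 0.43), VhaAC39-1 (−0.09, −0.38 to 0.73) and VhaAC45 (−0.19 to 1.26 with 1 library left out), each negative without control replicate 1. Beyond the alternatives' own construction the cause of these moves was not tested. Replicate numbers share only a number: the replicate differences of the 2 groups correlated at −0.03 across genes, and the block left 1 residual degree of freedom. No direction of Vha68-1, VhaM9.7-a or VhaAC45RP changed in any setting run.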

Other observations

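Vha36-3, a paralog of the stalk subunit D, read 4.95 FPKM in control replicate 2 and at most 0.57 FPKM elsewhere. That library also had the highest sums of the markers of fat body (1456.5 FPKM, against 67.7 to 535), muscle (390.0 FPKM, against 45.9 to 140.1), imaginal disc (509 FPKM, against 29.5 to 262), trachea and cuticle (270.5 FPKM, against 60.0 to 153.1) and neuroblasts (107.0 FPKM, against 17.3 to 92.2), and their part in the Vha36-3 value was not tested. In control replicate 1, VhaAC45, VhaAC39-1 and Vha100-2 were the lowest of the 4 libraries, at 20.4, 24.8 and 3.97 FPKM, while Vha14-1 and VhaM9.7-b were above control replicate 2.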
